A study of Sycon ciliatum with 26 samples.

Results

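A set of 52 gene IDs of the calcareous sponge Sycon ciliatum was chosen for being low through days 1 to 4 after dissociation and higher from days 6 to 8 to the end of the time course. The choice was made from measured values, among 35307 IDs counted in each library. Each library's counts were divided by its total and scaled to counts-per-million (CPM), and CPM was averaged over the libraries of each time window. A member had a mean of at least 10 CPM in each of the 4 later windows, from days 6 to 8 on. Each of those means was also over 3 times the highest mean of days 1, 2 and 3 to 4, called the highest early mean here. Finally, the mean at days 6 to 8 was no less than the higher mean of days 16 to 18 and days 21 to 24 divided by 3. The limit of 200 members in the rule was not reached. Because all 7 window means entered the choice, the difference between early and later windows is a description of the members and not a finding.

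The study followed regenerating structures by mRNA sequencing, and its title concerns how far regeneration resembles development after the larva. Windows are called here by the days and stage names in the labels: D1 and D2 (2 libraries each), D3-4 and D6-8 (6 libraries each), D10-14 (4 libraries), PJUV, which is days 16 to 18 (3 libraries), and JUV, which is days 21 to 24 (2 libraries). A further library, called the adult library here, held cells dissociated from a whole animal and had no replicate. For the fifth window the design text names an end at day 12, and the sample labels, which give day 14, were followed. No strain, genotype, age or drug is named, dissociation is shared by all 26 libraries, and the labels do not say whether libraries of one window came from separate animals. A p-value below therefore measures the spread between libraries, which may be technical.

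Sponges of this class are built around choanocytes, flagellated collar cells that line inner cavities and drive water through the body, with an outer layer of flat pinacocytes and, between them, cells that secrete calcite spicules. When a sponge is taken apart into cells, the cells crawl together, aggregate and round up into bodies with an outer cell layer. Such a body can later form a choanocyte-lined cavity, new spicules and an outflow opening (the osculum), and so become a small functional sponge. RNA was taken here from whole structures, so a low value from fewer cells of a type and a low value from less RNA per cell cannot be told apart. The files pair the IDs with no gene names, and none of the 35307 IDs matched the 26717 genes of the RefSeq table for this species. No role is therefore given to any member. IDs of this kind can be fragments of a gene or overlap another ID, and neither was resolved here, so each value stands for an ID and not for a known gene.

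Library totals ran from 7425481 to 26087749 counts, and those of D6-8 from 8328070 to 11306378. The members together took 0.0155% of the counts of the deepest library, which is from D1, and 0.997% in the library where they were highest, replicate 2 of PJUV. Among the 42 pairs of libraries of one window, the smallest chi-square divided by the number of IDs was 15.05, far above counting noise, and each library was counted as a replicate.

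The members were a small part of the IDs in use. At 10 CPM or more in all 4 later windows there were 8406 IDs, called the comparison IDs below, of which the members were 52. The same form of rule set 1 window earlier gave 62 IDs, and set 1 window later it gave 17, with no ID shared with the members. Without the limit on the level of D6-8 against PJUV and JUV there would have been 88 members. In addition, 129 IDs met every other criterion with a fold of 2 to 3, and 17 with a lowest later mean of 5 to 10 CPM. The members just inside that edge had folds of 3.02, 3.04 and 3.04, and the IDs just outside it had folds of 2.97, 2.99 and 2.99. At the edge set by level, the lowest later means were 10.2, 10.4 and 10.6 CPM inside and 9.99, 9.22 and 8.55 CPM outside. As a share of the higher mean of PJUV and JUV, the level of D6-8 was 34.2%, 34.9% and 35.8% just inside and 30.5%, 30.5% and 30.4% just outside. The number of members depended on scaling: CPM on totals scaled by TMM (trimmed mean of M-values, edgeR's default) left 30 of the 52. That scaling lowered the log2 ratio of D6-8 over D3-4 by 0.10 at the median of the comparison IDs, from 0.13 to 0.02, and that of the members from 1.83 to 1.68.

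Most members were not silent before day 6. The median member averaged 2.44 CPM at D1, 2.42 at D2 and 6.72 at D3-4, then 23.2 at D6-8, 39.3 at D10-14, 40.4 at PJUV and 38.2 at JUV. In 51 of the 52 the highest early mean was that of D3-4. Only 1 member stayed under 1 CPM in all 3 early means, and 17 stayed under 5 CPM. D6-8 was the highest window of 0 members, against 35 that were highest at PJUV, 9 at D10-14 and 8 at JUV. The mean at D6-8 was 47.1% of a member's highest window mean at the median (range 16.5% to 84.8%). Levels within the set spanned a wide range: the lowest later mean was 100 CPM or more in 9 members and under 20 CPM in 21.

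Added over all members, the summed level was 248 CPM ± 131 (SD, n = 2) at D1, 378 ± 172 (SD, n = 2) at D2 and 1321 ± 741 (SD, n = 6) at D3-4. At D6-8 it was 4893 ± 2669 (SD, n = 6). It was 7572 ± 893 (SD, n = 4) at D10-14, 9465 ± 596 (SD, n = 3) at PJUV and 8026 ± 266 (SD, n = 2) at JUV.

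The description "switched on at D6-8" held for the window mean but not for each library of that window. Each member's level in a library was divided by the mean of its 4 later window means, and the median over the 52 members is called the relative level here. At D6-8 the relative level was 81.0%, 16.5%, 114%, 91.1%, 30.5% and 44.7% in replicates 1 to 6. The 4 libraries of D10-14 ran from 81.8% to 107%, so replicate 4 of D6-8 was within their range, replicate 3 above it and replicate 1 just below it, whereas replicate 2 was within the range of D3-4. At D3-4 the values were 11.3%, 8.46%, 24.6%, 27.5%, 5.75% and 21.9% in replicates 1 to 6, so replicate 2 of D6-8 was below 3 of these 6 libraries. PJUV gave 137%, 126% and 121%, JUV gave 106% and 96.8%, D1 gave 3.05% and 5.80%, and D2 gave 4.13% and 5.21%. The 6 libraries of D6-8 thus spanned from early to later levels, and all 9 libraries of days 10 to 24 lay above every library of days 1 to 4.

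**Figure D1:**
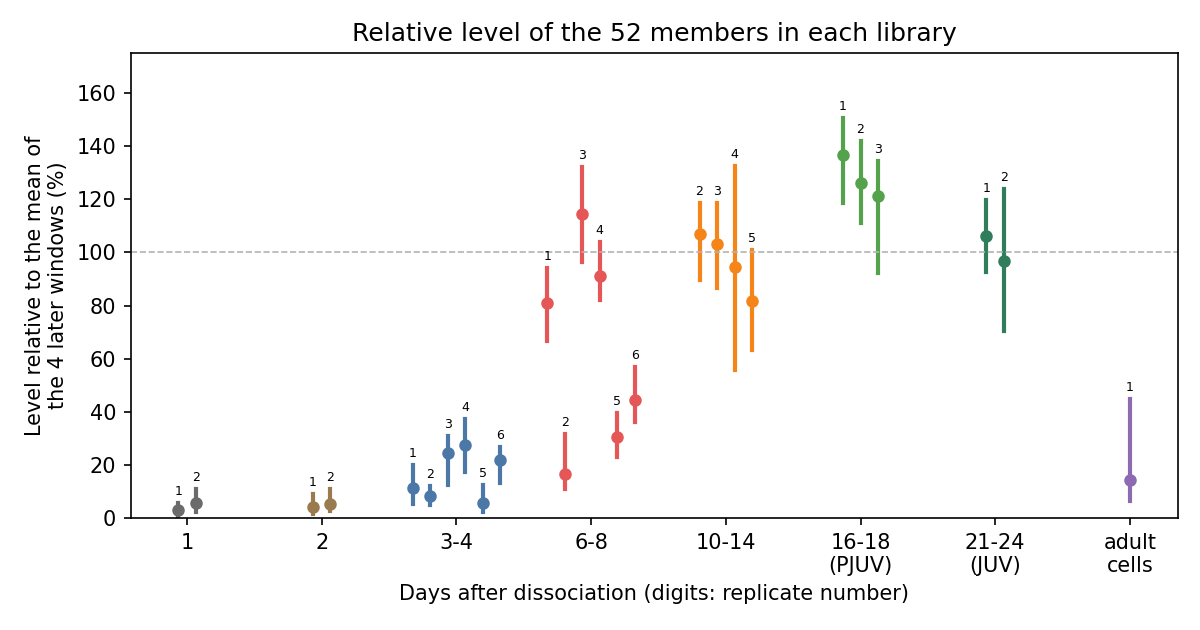
Relative level of the 52 members in each library, as a percentage of the mean of the 4 later window means, against the time window; points are medians over members, lines run from the lower to the upper quartile over members, and digits are replicate numbers. At D6-8, replicates 1, 3 and 4 sit at 81.0% to 114% and replicates 2, 5 and 6 at 16.5% to 44.7%, while the adult library sits at 14.5%.

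Counts of members by library showed the same spread. At 10 CPM or more there were 47, 22, 50, 52, 28 and 43 members in replicates 1 to 6 of D6-8. Replicate 3 held the highest value of the window in 35 members, replicate 4 in 10, replicate 1 in 4 and replicate 6 in 3. Replicate 2 held the lowest value in 43 members, replicate 5 in 6, replicate 3 in 2 and replicate 1 in 1. The highest library of D6-8 exceeded the lowest by a factor of 8.74 at the median of the members (range 1.90 to 346), against 1.69 at the median of the 8405 comparison IDs with a count in every library of that window. Members varied together across these 6 libraries: in 46 of 52, Spearman's rho with the median profile of the other members was 0.8 or more. As a description over 6 libraries that share depth and composition, the median rho was 0.943. It was under 0.3 in 4 members and under 0 in 2. Over the 9 libraries of days 10 to 24, the same measure had a median of 0.567 (range -0.783 to 0.883). Neither was computed for the comparison IDs. The rule chose members by their mean at D6-8, which a few high libraries can raise. Without replicate 3 of D6-8 it kept 21 of the 52 members. Part of the shared profile, and of the spread between these libraries, is therefore fixed by the choice.

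Other IDs separated the same libraries. A principal component analysis of the 1000 most variable IDs, with all members left out, gave a first component of 63.6% of the variance that followed time and a second of 10.0%. On the second component, replicates 1, 3 and 4 of D6-8 scored 15.3, 16.9 and 16.1, and replicates 2, 5 and 6 scored -28.2, -31.3 and -16.5. On the first, the scores of replicates 1 to 6 were 14.2, -3.52, 29.9, 10.8, 19.1 and 16.7. Replicate 3 had the highest score and the highest relative level of the window, and replicate 2 had the lowest of both. Replicates 5 and 6 scored above replicate 4 and had lower relative levels. At D3-4 the second component gave -32.7, -15.2, 18.5, 18.8, -31.0 and -8.88 in replicates 1 to 6, and the relative level of the members was highest in replicates 3 and 4. At D10-14 it gave 16.7, 22.2, -28.1 and -9.94 in replicates 2 to 5, whose relative levels were 107%, 103%, 94.3% and 81.8%. Replicates 1 to 6 of D6-8 held 8976109, 8328070, 9774218, 9685571, 11306378 and 11044195 counts, and the lowest of these totals was that of replicate 2. The part of whatever sets either component, and of depth, in the members' values was not tested.

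**Figure D2:**
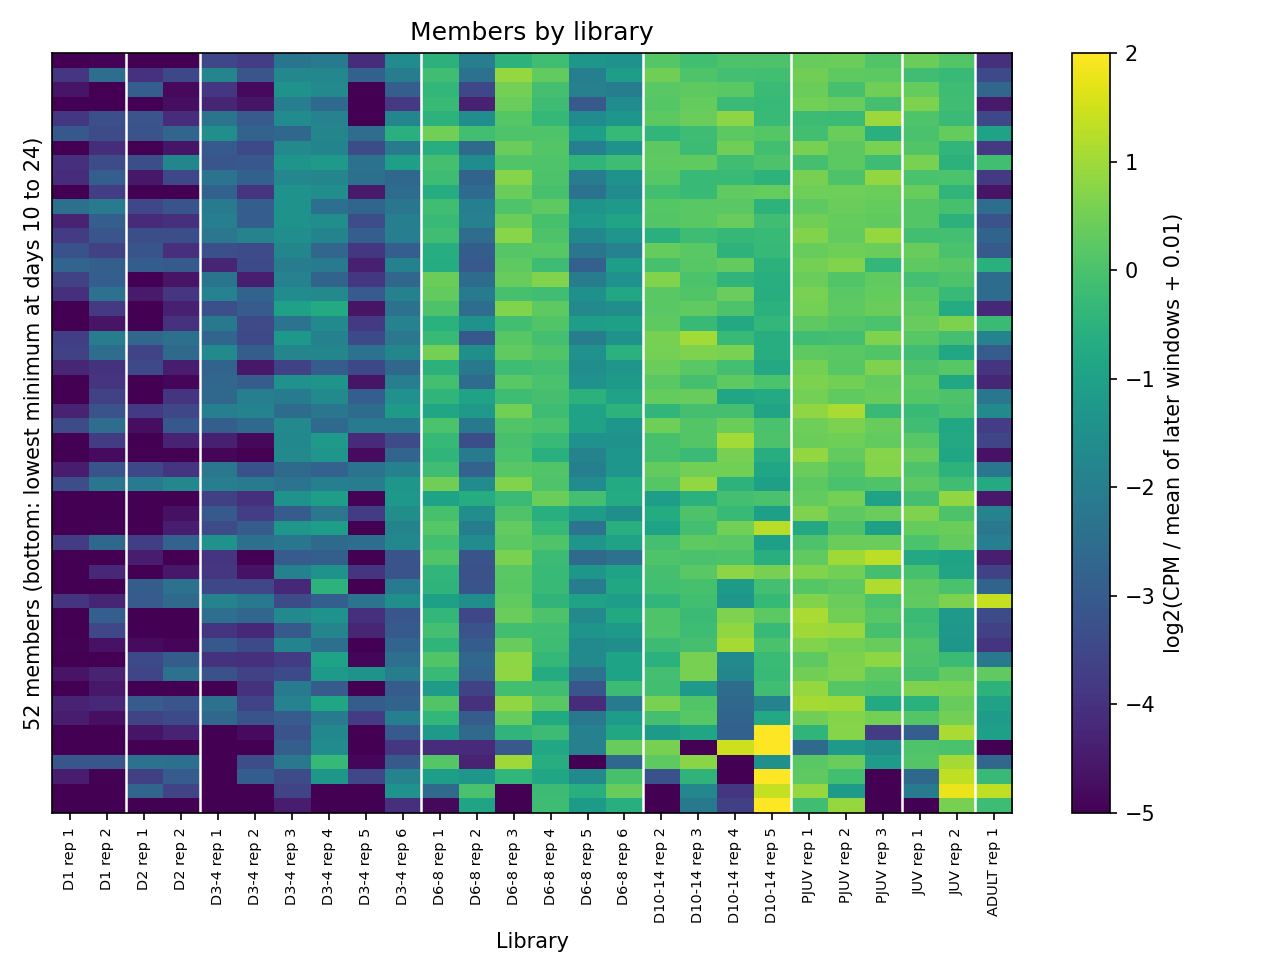
Level of each of the 52 members (1 row each) in each of the 26 libraries (columns, white lines between groups), as log2 of CPM divided by the mean of the later window means, with 0.01 added; the colour scale is limited at both ends. Columns of replicates 2, 5 and 6 of D6-8 are darker than those of replicates 1, 3 and 4 in most rows, and the rows at the bottom are members that were also low in a library of days 10 to 24.

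The step from D3-4 to D6-8 was described with edgeR's quasi-likelihood test over all 23995 IDs that passed its filter on low counts, with Benjamini-Hochberg adjustment. At an adjusted p under 0.05, 32 of the 52 members were called higher and 0 lower, where 2.53% of all tested IDs were called higher. The rule used both means, so nothing is read from that count. The members' log2 fold changes ran from 1.39 to 4.56 with a median of 1.68, against a median of 0.0049 over all tested IDs, and their adjusted p from 0.00149 to 0.472. The 20 members not called had a median ratio of 11.0 between the highest and the lowest library of D6-8, and the 32 called had one of 5.38. Without replicate 3 of D6-8, 19 members were called, and a fit of only these 12 libraries called 18. In 7 of 52 members every library of D6-8 was above every library of D3-4, which held for 2.58% of the comparison IDs. That number was 20 without replicate 2 of D6-8 and 12 without replicate 6 of D3-4. For any ID, leaving out a library can only keep or remove an overlap. The share of the comparison IDs without those libraries is not given, so nothing about the members is read from the rise.

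Few members were called as changed after D6-8, and the rule limits what can be read from that. It allowed means of PJUV and JUV of at most 3 times that of D6-8, and 36 IDs missed only this limit. It set no upper limit on D10-14. The counts of members called are therefore descriptions. Between D6-8 and D10-14, edgeR called 0 members, and 0% of the tested IDs (0 of 23995), higher or lower at an adjusted p under 0.05. At an unadjusted p under 0.05, 1411 of all tested IDs and 5 members passed, and DESeq2 called 13 IDs higher, of which 0 were members. The fitted change was positive in 51 of 52 members, with a median log2 fold change of 0.61 and a lowest adjusted p of 0.835 among them. From D6-8 to the mean of PJUV and JUV, it was positive in all 52, with a median log2 fold change of 0.78. In that comparison 1 member, MSTRG.28218, was called higher by edgeR, with a log2 fold change of 1.11 and an adjusted p of 0.0290, where 2.83% of all tested IDs were called higher. That call was lost in 10 of 19 alternatives (adjusted p 0.00703 to 0.121 in edgeR and DESeq2), which were both replicate blocks and leaving out replicate 1, 2, 5 or 6 of D6-8, replicate 1 or 2 of PJUV, or either library of JUV. Between PJUV and JUV, 0 members were called by edgeR and by DESeq2, where edgeR called 0.0375% of tested IDs higher and 0.00834% lower. At an unadjusted p under 0.05 in this edgeR fit, 0 members and 1706 of all 23995 tested IDs passed. An edgeR fit of only these libraries put 12 members and 2975 of 20154 IDs under that limit. The last step was positive in 15 of 52 members, with a median log2 fold change of -0.28.

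The rule held D2, which had 2 libraries, and D3-4 under the same limit. From D2 to D3-4, edgeR called 4 of the 52 members higher after adjustment. At an unadjusted p under 0.05 in edgeR, 28 members and 4461 of all 23995 tested IDs passed. The fitted change was positive in 50 of 52 members, with a median log2 fold change of 1.44. The members MSTRG.17849, MSTRG.2361, MSTRG.5519 and MSTRG.28126 were called higher by edgeR with adjusted p of 0.0284, 0.00904, 0.0460 and 0.0250, where 1.32% of tested IDs were called higher. Those IDs are named for passing this test, after their values were seen, and in alternatives they were called in 11, 12, 6 and 12 of 16. MSTRG.2361 had 3.37 and 3.50 CPM at D2, 13.2 to 86.1 CPM with a median of 37.8 at D3-4, and 66.3 to 244 CPM at D6-8. Its libraries of D2 and D3-4 did not overlap. The number of members called was 0 without replicate 1 of D2 and 9 without replicate 5 of D3-4, and DESeq2 called 18. It was also 0 with the title number as a replicate block and when only these libraries were fitted, and 1 with the set label as the block. Over all IDs, DESeq2 called 968 of 21249 higher in this step. MSTRG.28218 was chosen after its values were seen as well. It had 1.46 to 5.74 CPM at D3-4 with a median of 3.43, and 5.76 to 20.7 CPM at D6-8 with a median of 8.44, without overlap. Its later libraries had 12.8, 15.5, 6.45 and 13.5 CPM at D10-14, 26.7, 22.1 and 17.1 at PJUV, and 20.7 and 25.9 at JUV. The highest library of D6-8 was above 1 of the 3 libraries of PJUV and level with the lower one of JUV.

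The named IDs were the 2 with the largest ratio of lowest later mean to highest early mean plus 1 CPM, and the 2 that were to have the largest fall from D6-8 to PJUV and JUV. No member fell: the ratio of the mean of PJUV and JUV to that of D6-8 ran from 1.10 to 2.61 with a median of 1.78, and the latter 2 IDs are those with the smallest ratios. MSTRG.13487 had 2.07 and 3.36 CPM at D1, 23.4 and 10.4 CPM at D2, and 9.37 to 80.6 CPM with a median of 49.2 at D3-4. At D6-8 it had 64.5 to 970 CPM with a median of 338, at D10-14 it had 664, 628, 658 and 415 CPM, at PJUV it had 778, 1280 and 1581 CPM, and at JUV it had 371 and 327 CPM. Its libraries of D3-4 and D6-8 overlapped, and its mean at JUV was below those of the 3 windows before. From D3-4 to D6-8 its log2 fold change was 2.98 with an edgeR adjusted p of 0.00632, and the adjusted p stayed under 0.05 in all 20 alternatives run (5.24e-06 to 0.0407).

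MSTRG.31331 had 3.95 and 3.05 CPM at D1, 3.55 and 5.12 CPM at D2, 4.87 to 24.0 CPM with a median of 7.97 at D3-4, and 17.2 to 51.0 CPM with a median of 35.1 at D6-8. The later libraries had 26.9, 31.3, 42.0 and 39.9 CPM at D10-14, 32.9, 47.4 and 24.2 at PJUV, and 35.2 and 45.2 at JUV. All 9 later libraries lay within the range of D6-8, and 1 library of D3-4, replicate 6, overlapped that range. The log2 fold change from D3-4 to D6-8 was 1.62 with an edgeR adjusted p of 0.00373 (4.00e-05 to 0.0295 over 20 alternatives). From D6-8 to PJUV and JUV it was 0.14 with an edgeR adjusted p of 0.828.

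MSTRG.18346 had 3.18 and 7.32 CPM at D1, 3.28 and 7.00 CPM at D2, and 5.31 to 13.4 CPM with a median of 12.2 at D3-4. At D6-8 it had 15.1 to 63.2 CPM with a median of 38.4, without overlap with the earlier libraries. It then had 63.5, 68.9, 66.2 and 27.8 CPM at D10-14, 52.6, 50.6 and 47.2 at PJUV, and 39.8 and 24.9 at JUV. Its edgeR log2 fold change from D3-4 to D6-8 was 1.69 with an adjusted p of 0.00613 (0.000113 to 0.0266 over 20 alternatives).

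MSTRG.7863 had the largest ratio of all members and the least even values. It had 5 and 0 counts at D1 and 3 and 3 counts at D2, and 0 to 22 counts in the 6 libraries of D3-4, at most 2.04 CPM. At D6-8 it had 1.00, 21.1, 0.102, 35.4, 17.3 and 26.9 CPM in replicates 1 to 6, so the replicate where most members were highest had 1 count of this ID. D10-14 gave 0.0841, 8.58, 2.79 and 301 CPM in replicates 2 to 5. PJUV gave 36.2, 75.7 and 0 CPM and JUV gave 0.167 and 60.1 CPM. Replicate 3 of PJUV, listed at 0 counts in a total of 11863223, allows a level of up to 3 counts in that total. In every later window some libraries were at the early level and others far above it. Its log2 fold change of 4.56 from D3-4 to D6-8 had an edgeR adjusted p of 0.0961, and 2 of 20 alternatives put it under 0.05 (0.0277 to 0.177).

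**Figure D3:**
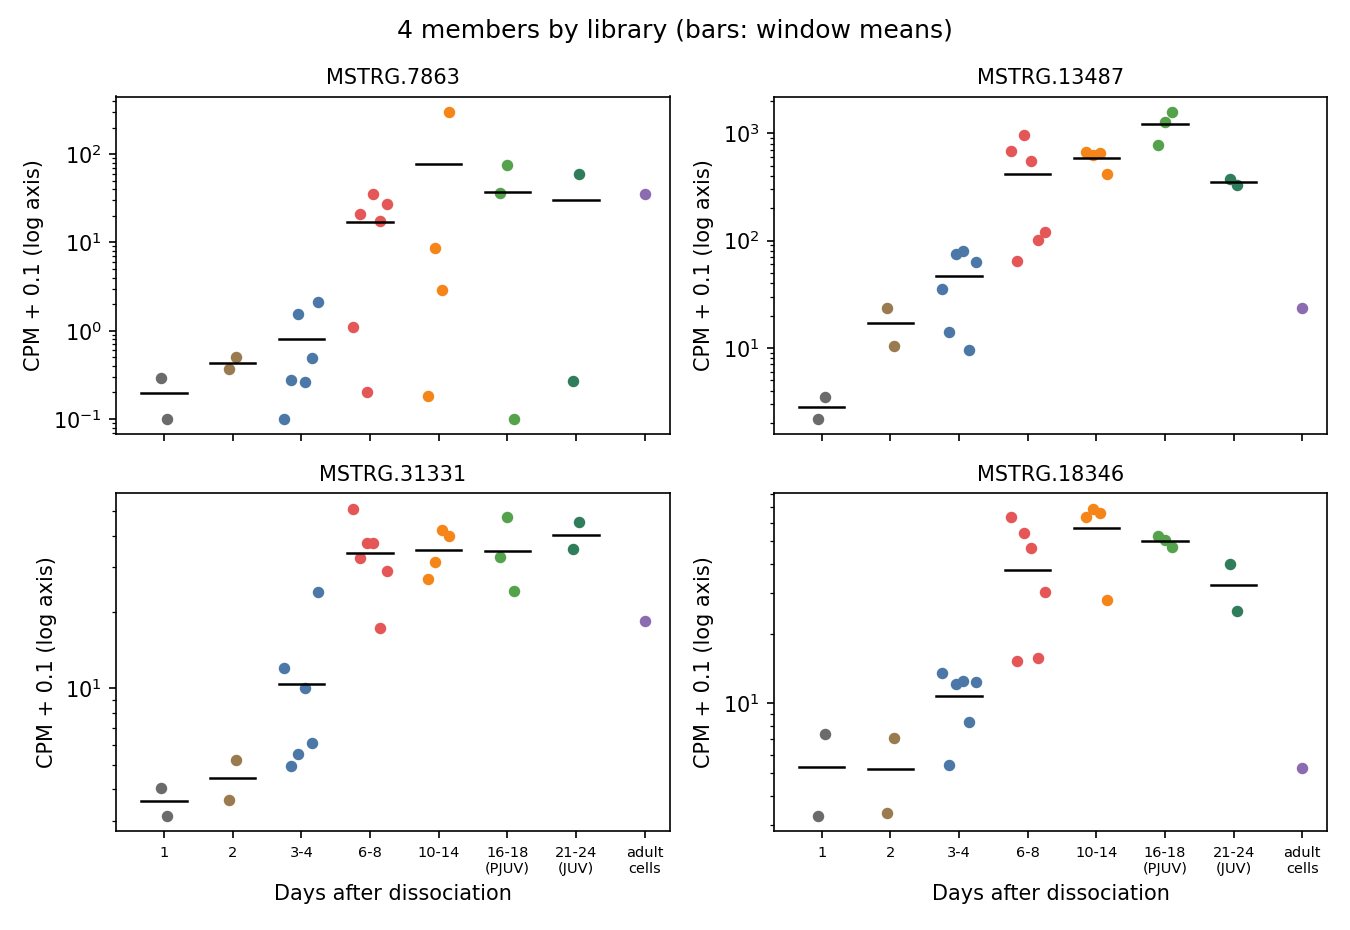
CPM plus 0.1 (log axis) of the 4 named members in each library against the time window, with bars at window means. MSTRG.31331 and MSTRG.18346 stay between 24.2 and 68.9 CPM from days 10 to 24, while MSTRG.7863 ranges from 0 to 301 CPM over the same libraries.

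A few further members were uneven in the same way. A library of days 10 to 24 was below 10% of the mean of those 9 libraries in 6 of 52 members (11.5%), against 86 of 8406 comparison IDs (1.02%). These 6 members were MSTRG.7863, MSTRG.19058, MSTRG.7387, MSTRG.27564, MSTRG.29278 and MSTRG.13643, named after their values were seen. Of the 6, edgeR called 0 higher at D6-8 than at D3-4 (adjusted p 0.05 or above). Replicate 3 of PJUV was the low library in 4 of them, MSTRG.7863, MSTRG.19058, MSTRG.7387 and MSTRG.13643, and replicate 4 of D10-14 was low in 4 of the 6. The same 2 libraries were low in 23 and 59 of the 86 comparison IDs. MSTRG.7387 gave 59.7, 13.9 and 0 CPM at PJUV and 7.00 and 112 CPM at JUV. MSTRG.13643 gave 32.4, 25.1 and 0.0843 CPM at PJUV, and MSTRG.19058 gave 285, 632 and 24.6 CPM there. Each was low in the PJUV library where MSTRG.7863 had no count. In replicate 5 of D10-14 the order was the opposite: MSTRG.19058 had 1976 CPM there against at most 204 in the rest of D10-14, MSTRG.7387 had 83.2 CPM against at most 9.25, and MSTRG.13643 had 131 CPM against at most 19.8. At JUV all 4 of these members, with MSTRG.7863, were lower in replicate 1 than in replicate 2. MSTRG.7863 had 0.167 and 60.1 CPM there, and MSTRG.19058 had 47.4 and 833 CPM. MSTRG.7387 had 7.00 and 112 CPM, and MSTRG.13643 had 4.16 and 68.2 CPM. These 4 members did not move together in replicate 3 of D6-8. MSTRG.7863 and MSTRG.7387 had 0.102 and 0.512 CPM in it, the lowest of that window, and MSTRG.19058 and MSTRG.13643 had 285 and 20.6 CPM, each the second highest. They were singled out after their values were seen. The part of single libraries in these values was not tested.

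At the other end, the most abundant member, MSTRG.11188, singled out after its values were seen, was higher in every library from day 6 on than in any before. It had 11.3 and 44.7 CPM at D1, 19.0 and 77.6 CPM at D2, 91.3 to 447 CPM with a median of 298 at D3-4, and 550 to 1576 CPM with a median of 860 at D6-8. Values were 1760, 1220, 843 and 1132 CPM at D10-14, 1771, 1600 and 1487 at PJUV, and 1919 and 2264 at JUV. The edgeR log2 fold change from D3-4 to D6-8 was 1.69 with an adjusted p of 0.0154. Over all members, the libraries of days 10 to 24 lay above all libraries of days 1 to 4 in 40 of 52, against 5.44% of the comparison IDs, a contrast that the rule also used. The IDs MSTRG.12930 and MSTRG.12931, the only consecutive pair of numbers among the members, averaged 94.6 CPM ± 56.3 and 46.8 CPM ± 26.0 (SD, n = 6) at D6-8. Whether they are parts of one gene was not tested.

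To read the pattern in a library that had no part in the choice, the rule was applied again without each library in turn. The IDs so found were read in the library left out. An ID counted as on there at 10 CPM or more and over 3 times the highest early mean. Of the 40 IDs chosen without replicate 1 of D6-8, 29 (72.5%) were on in it, as were 18 of 23 (78.3%) for replicate 3 and 31 of 32 (96.9%) for replicate 4. The share was 2 of 71 (2.82%) for replicate 2, 4 of 70 (5.71%) for replicate 5 and 8 of 60 (13.3%) for replicate 6. Leaving out a library with low values also lets in IDs that had missed the rule through that library. Of the 71, 70 and 60 IDs, 51, 52 and 48 were members. These 3 shares are therefore partly lowered by the choice itself. The left-out libraries of D10-14 gave 86.0%, 92.0%, 73.1% and 81.3%, those of PJUV gave 94.0%, 100% and 84.3%, and those of JUV gave 92.9% and 73.8%. Among the comparison IDs, 0.226% to 4.18% were on in these 15 libraries, but their early means were not held low by the rule, so that share is not a like-for-like background. The early means used for this reading were those that the rule held low, which can raise the shares of the IDs chosen. Within that limit, most IDs chosen without a library were on in it for each library of days 10 to 24. The same held for replicates 1, 3 and 4 of D6-8. Without replicate 3 of D6-8 the rule gave 23 IDs, 21 of them members, and without replicate 4 it gave 32.

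**Figure D4:**
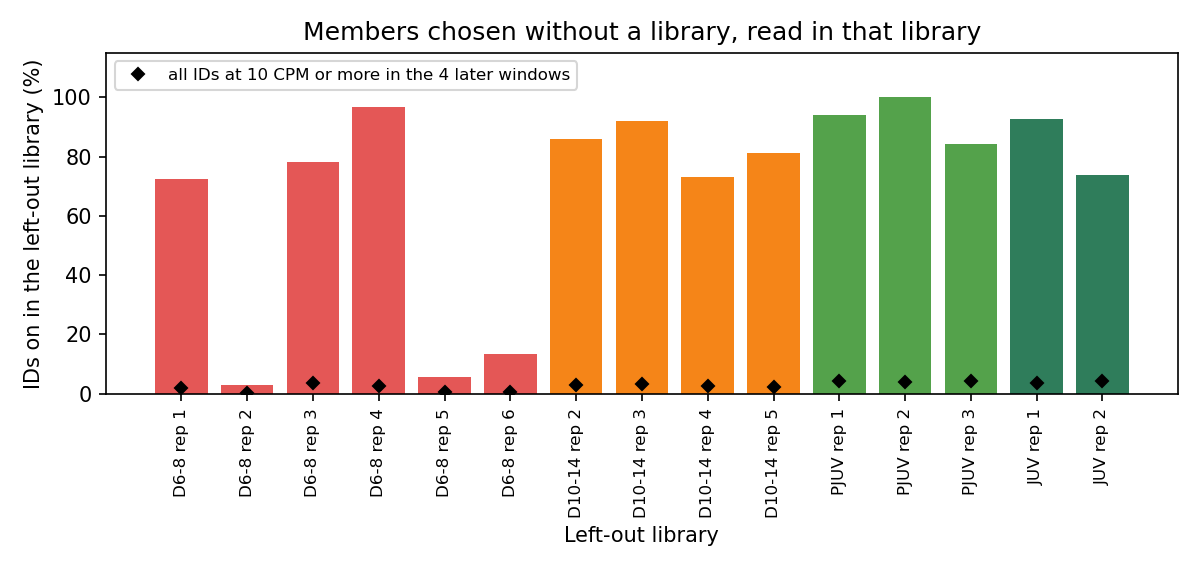
Share of IDs (%) that were on in a library of days 6 to 24, among those chosen by the rule without that library (bars), and among all IDs at 10 CPM or more in the 4 later windows (diamonds). Replicates 2, 5 and 6 of D6-8 give 2.82% to 13.3%, and every other library gives 72.5% or more.

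Early libraries were read in the same manner, counting an ID as low at less than the lowest later mean divided by 3. The share that was low was 100% and 98.1% in the libraries of D1 and 96.2% and 92.7% in those of D2. At D3-4 it was 74.5%, 84.2%, 30.5%, 22.9%, 97.1% and 35.8% in replicates 1 to 6. Over the comparison IDs, whose early means the rule did not hold low, the share was 5.23% to 13.7% in the libraries of D1 and D2 and 1.11% to 5.79% in those of D3-4. The libraries of D3-4 with the smallest shares, replicates 3, 4 and 6, were those with the highest relative level of the members. Leaving them out let in IDs that were high in them: the rule gave 59, 70 and 67 IDs, of which 48, 50 and 50 were members. Their shares are therefore partly lowered by the choice as well. Every one of the 10 early libraries was included, and the rule without replicate 5 of D3-4 gave 34 IDs.

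The adult library took no part in the rule, and there most members were low. Their median level was 14.5% of the mean of the later windows, where the comparison IDs had a median of 67.6%. The comparison IDs were not chosen for later means above early ones, as the members were. Part of this gap, and of the gap in the share at 10 CPM or more, may therefore be fixed by the choice. In the sets given by the same form of rule 1 window earlier and 1 window later, the medians were 28.3% and 5.27%. In the adult library 30 of 52 members were at or below their highest early mean, 13 lay between that and their lowest later mean, and 9 were at or above their lowest later mean. At 10 CPM or more there were 20 members (38.5%), against 79.4% of the comparison IDs, and 3 members were under 1 CPM. Counted as on (10 CPM or more and over 3 times the highest early mean) were 10 of 52 members (19.2%), against 1.94% of the comparison IDs. The rule held the highest early mean low for every member and not for the comparison IDs, so part of that gap is fixed by the choice of members. Of the 36 IDs that met the same level and fold criteria and missed only the limit on D6-8, 13 (36.1%) were on in the adult library. The set chosen 1 window earlier had 23 of 62 (37.1%) on in the adult library, and the set chosen 1 window later 1 of 17 (5.88%). With a single adult library these shares have no replicate check and were not tested against each other.

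The members on in adult cells differed in size and evenness. MSTRG.11188 had 1239 CPM there (95% exact Poisson interval 1218 to 1259, counting error only) and made up 40.4% of the members' summed adult level of 3067 CPM. MSTRG.28218 had 44.0 CPM (40.3 to 48.1), above all 25 regenerating libraries. MSTRG.7387 had 80.3 CPM (75.2 to 85.7), and MSTRG.7863 had 35.6 CPM (32.2 to 39.3). Of the 6 members that were uneven in later libraries, 4 were on in the adult library, and of the 46 others 6 were. By contrast, MSTRG.13487 had 23.6 CPM in adult cells (20.9 to 26.6), within its range at D3-4 and below every library from day 6 on. MSTRG.31331 had 18.4 CPM (16.0 to 21.1) and MSTRG.18346 had 5.18 CPM (3.94 to 6.68), the latter within its range at days 1 to 2. All libraries followed dissociation, but the adult library was of dissociated cells and the others were of whole regenerating structures. The effect of this form of sample and that of the life stage therefore cannot be told apart.

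**Figure D5:**
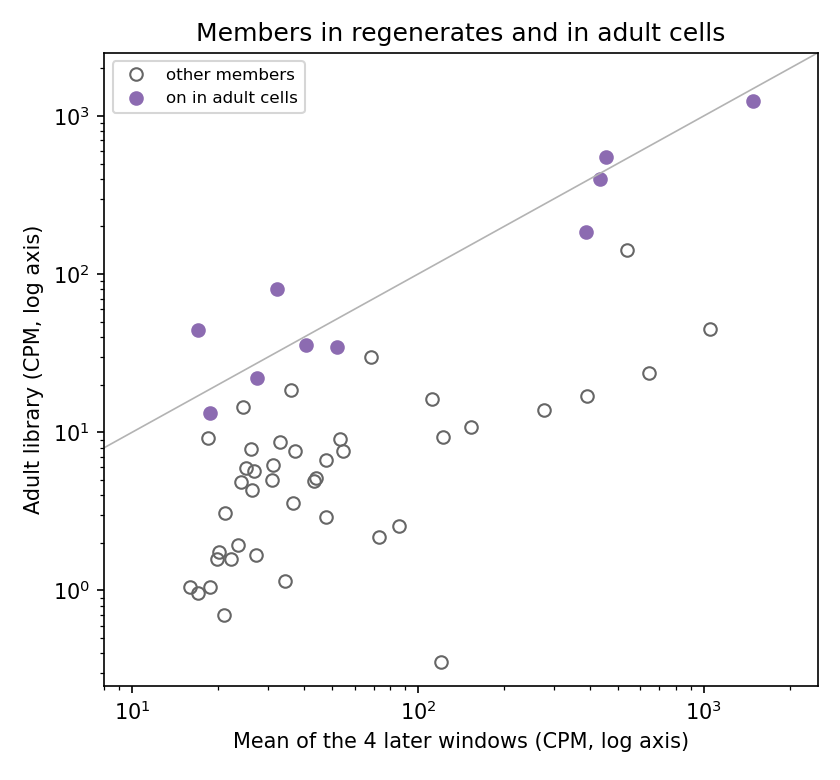
Level of the 52 members in the adult library (CPM, log axis) against the mean of their 4 later window means (CPM, log axis), with the line of equal levels; filled points are the 10 members on in adult cells. Most open points lie far below the line, and the filled point at 1239 CPM is MSTRG.11188.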

How the data were processed

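The deposited values are whole-number counts per gene ID, 1 table per library, per the file headers, for 35307 IDs. Every row names an ID. Per the labels' protocols, Trizol was used for extraction and the SENSE mRNA-Seq kit for the libraries. The submitters' processing notes name Trimmomatic 0.36, HISAT2, StringTie, featureCounts, DESeq2 and Bowtie2, without roles or order; build, gene models and strand setting are not given in the sources used here. Groups and replicate numbers came from the labels. At D10-14 the titles number the replicates 2 to 5 and the set labels 1 to 4; the titles were followed.

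CPM used unscaled totals. The members and lists were chosen with earlier results of these data known. The test was the two-sided robust quasi-likelihood F test of edgeR 4.0.16 after filterByExpr and TMM scaling (R 4.3.3, limma 3.58.1) in 1 model of the 25 regenerating libraries with window as the factor, Benjamini-Hochberg adjusted over 23995 IDs, threshold 0.05, common dispersion 0.174. It gives no standard error of a fold change. The adult library entered no test. Up to 4 IDs were named by rule: the 2 of largest rule measure and the 2 of largest fall after D6-8. Other named IDs were chosen after their values were seen. The procedure was tested on simulated counts. Alternatives were other scalings and filters, DESeq2 1.42.0, replicate blocks, a fit of only the libraries compared, other limits of the rule, and leaving out each library. Leaving out a library from the pooled share of IDs on in left-out libraries was added after seeing the data. Principal components used log2 of TMM-scaled CPM plus 1 for IDs with a mean of at least 5 CPM (NumPy 2.4.6, pandas 2.3.3, SciPy 1.17.1, Python 3.11.15). Intervals and floors (3 counts) cover counting error only.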

Additional observations from a re-analysis of the deposited data

Results flagged for a closer look

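The summed level, the relative level, the number of members at 10 CPM or more and the 10 members given library by library were examined for a value far from the rest of its window (Dixon's limit at 95%, windows D3-4, D6-8 and D10-14). Of the 21 sets from the summaries and the 4 members named by rule, 4 held one, where chance alone gives about 1 in 20 for sets that do not share libraries, as these do. The other 6 members were singled out after their values were seen, some for uneven values, so their 5 further values are descriptions with no chance rate. The same library, replicate 5 of D10-14, held 6 of the 9. In it 4 members were far above the rest of their window. MSTRG.7863 had 300.6 CPM (others at most 8.58), MSTRG.19058 had 1976 CPM (others at most 204), MSTRG.7387 had 83.2 CPM (others at most 9.25) and MSTRG.13643 had 131 CPM (others at most 19.8). Another 2 were far below it: MSTRG.13487 had 415 CPM (others 628 to 664) and MSTRG.18346 had 27.8 CPM (others 63.5 to 68.9). The relative level of all members in this library was 81.8%, the lowest of the 4, and its summed level was 8706 CPM, the highest of the 4.

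The remaining values were from D3-4. In replicate 6, MSTRG.31331 had 24.0 CPM (others 4.87 to 11.9) and MSTRG.7387 had 11.9 CPM (others 0.177 to 2.38). In replicate 4, MSTRG.19058 had 112 CPM (others 6.30 to 42.6). No value of D6-8 stood apart by this measure. The causes were not tested.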

How the results depend on the processing

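For D6-8 against D3-4, 18 members were called by edgeR when only those libraries were fitted, and leaving out each library gave 19 to 36; other settings gave 28 to 40. For PJUV and JUV against D6-8, a mean of at least 5 CPM gave 2, DESeq2 gave 3, only the libraries compared gave 5, and leaving out each library gave 0 to 3. For D3-4 against D2, the corresponding numbers were 7, 18, 0 and 0 to 9. The other 2 steps gave 0 members in every alternative run. The rule gave 30 IDs with TMM-scaled CPM, 181 at over 2 times and 10 at over 5 times the highest early mean, 31 at 20 CPM or more, and 23 to 71 when each library was left out. Medians in place of means gave 47 IDs, of which 35 were members. Members without overlap between D3-4 and D6-8 numbered 7 to 20 when a library was left out, which can only keep or raise that count. Members on in the adult library numbered 9 to 12 in all alternatives. The pooled share on in left-out libraries was 61.7% to 70.6%, against 64.2% of 748 readings. The same IDs recur among these readings, and the pooled value covers libraries of D6-8 that ran from 2.82% to 96.9%. The causes were not tested.

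The replicate numbers were not taken as pairing the samples, which needed every same-number correlation of deviations between D3-4 and D6-8 to be over 0.1: they were -0.21, 0.27, 0.04, 0.19, 0.17 and 0.18, over 0.1 in 4 of 6. The library of D6-8 that correlated best had the same number for 2 of the 6 libraries of D3-4. In same-number libraries 48 to 52 of the 52 members were higher at D6-8. The rule used both windows and the share over all IDs is not given, so nothing is read from those counts. With the title number as a replicate block, 30 members were called for D6-8 against D3-4, 0 for PJUV and JUV against D6-8 and 0 for D3-4 against D2. With the set label as the block, the numbers were 36, 0 and 1. With 2 libraries each, days 1, 2 and 21 to 24 limit what can be detected, as does depth for MSTRG.7863, which had at most 22 counts in any library of days 1 to 4.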
